A study of Homo sapiens with 14 samples.

Results

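The genes described here were at least 2-fold lower with a JMJD3 hairpin than with a control hairpin in both leukemia lines of the series. They were chosen from the deposited counts. A gene entered when it had at least 50 raw counts with the JMJD3 hairpin (shJMJD3) or the Renilla luciferase control hairpin (shRenilla), and a log2 ratio of shJMJD3 to shRenilla of -1 or less, in both lines. Ratios were taken between counts scaled to their column total, after 2 counts were added to the control and 2 times the ratio of the totals to the other column. This rule gave 129 genes with 128 symbols, since SNORD56 has 2 rows with identical counts. They were 0.812% of the 15882 genes with enough counts in both lines, and the tables hold 55075 genes in all. JMJD3 itself (gene KDM6B) was to be left out, and its CUTLL1 ratio would not have passed.

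The series holds 14 RNA sequencing samples of CUTLL1 and CEM, human lines of T cell acute lymphoblastic leukemia. Cells in suspension culture received, by retrovirus, a short hairpin that targets JMJD3, UTX (gene KDM6A, shUTX) or Renilla luciferase, a protein human cells lack. Each hairpin had 2 CEM samples. CUTLL1 had 3 with shJMJD3, 3 with shRenilla and 2 with shUTX. The number of hairpins per gene was not given in the sources used here, so effects of a hairpin and of the loss of its target cannot be told apart. The deposited values are 1 pooled count per gene, hairpin and line. No spread between replicates can therefore be computed within a line, and the intervals below cover counting error only. The CEM columns summed to 104190473 counts with shRenilla, 70834792 with shUTX and 70280185 with shJMJD3, and the CUTLL1 columns to 101792401 with shUTX and 174301733 with shJMJD3. The CUTLL1 shRenilla column was deposited in a larger form beside shJMJD3, with 258014046 counts, and a smaller form beside shUTX, with 144394369. Subtracting the smaller from the larger leaves a remainder of 113619677 counts, and both parts were used as controls of their own further on.

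JMJD3 and UTX are related enzymes that take methyl groups off lysine 27 of histone H3. Trimethylation of that lysine is laid down by the Polycomb complex PRC2 and marks silenced genes, so loss of a demethylase can leave a gene more methylated and less transcribed. In T cell leukemia, where NOTCH1 is often active, UTX is known as a tumour suppressor, and the study asked how the roles of both enzymes differ.

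In CPM, counts scaled to the column total, KDM6B in CEM stood at 206 with shRenilla, 198 with shUTX and 52.2 with shJMJD3. In CUTLL1 it stood at 18.8 CPM in the larger control, 21.5 in the smaller, 28.2 with shUTX and 10.9 with shJMJD3. The target was thus lower with its hairpin in both lines. Its log2 ratio was -1.98 in CEM and smaller, -0.79, in CUTLL1. The CUTLL1 ratio was -0.98 to the smaller control and only -0.49 to the remainder, where KDM6B stood at 15.3 CPM. KDM6A had log2 ratios of shUTX to shRenilla of -1.40 in CEM and -1.16 in CUTLL1, and of shJMJD3 to shRenilla of -0.65 and -0.14. The T cell markers CD3D, CD3E, CD7 and CD2 were present in every column, with a lowest value of 25.9 CPM, for CD2 in CEM with shUTX. Summed markers of other cells ranged over the columns from 94.9 to 341 CPM for B cells, 1.73 to 8.01 for myeloid cells, 7.15 to 18.9 for erythroid cells, 9.02 to 38.9 for NK cells and 4.20 to 17.4 for fibroblasts. CD20 (MS4A1), which marks B cells, was at 0 throughout. With shJMJD3, 4 of 7 B cell markers with 50 counts were at least 2-fold higher and 1 lower than with shRenilla in CEM, where 7.57% of all genes were higher, and 2 of 3 were higher and 0 lower in CUTLL1, where 2.91% were. NK markers were higher for 2 of 4 in CEM, where 1 was lower, and for 2 of 5 in CUTLL1, where 0 were. No gene of the set is on any of these marker lists, and the part of such cells in the results was not tested.

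All ratios of shJMJD3 to shRenilla in this and the next paragraphs describe how the genes were chosen and carry no test. The median log2 ratio of the 129 genes was -1.86 in CEM, with a range of -8.55 to -1.01, against a median of -0.32 over all 15882 genes. The lowest value comes from a gene with 0 counts, whose bound is -7.39, and the median is the same with such genes at their bound. In CUTLL1 it was -1.21, with a range of -2.74 to -1.002, against -0.16 over all. Passing the threshold was common in CEM, where 19.2% of all genes were at least 2-fold lower, and rare in CUTLL1, where 1.69% were, so the CUTLL1 ratio was the stricter condition. The fold was larger in CEM for 104 genes and larger in CUTLL1 for 25, and 56 genes were at least 4-fold lower in CEM against 7 in CUTLL1. Just inside the threshold lay WNT3, a secreted Wnt ligand, whose higher ratio of both lines was -1.0018, the neuronal transcription factor POU4F1 with -1.0026 and the drug-metabolising enzyme CYP2D6 with -1.0080. TBC1D13 with -0.9990, AC007956.1 with -0.9963 and KLHDC7B with -0.9893 lay just outside.

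**Figure D1:**
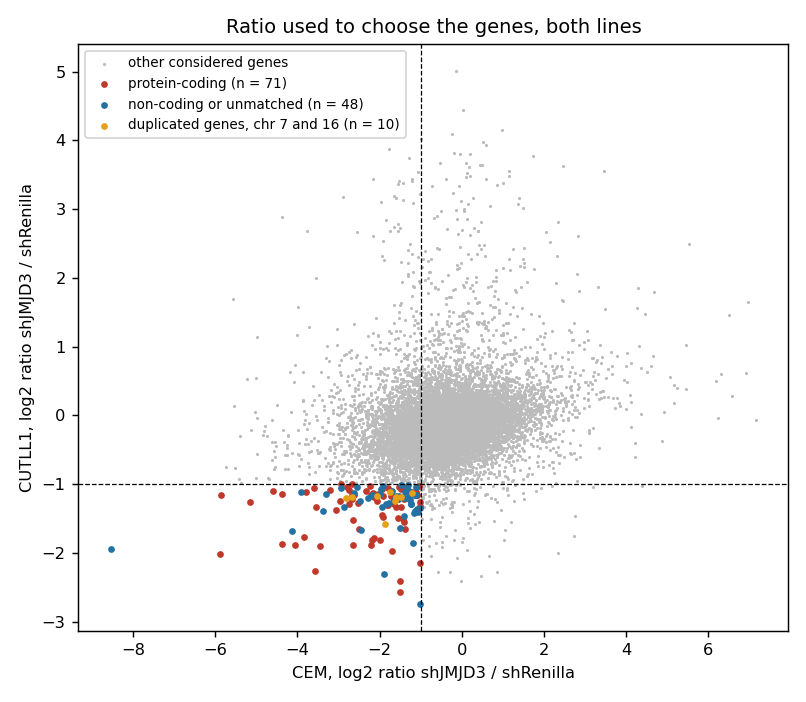
Log2 ratio of shJMJD3 to shRenilla counts per column total in CEM (horizontal axis) and CUTLL1 (vertical axis), 1 point per gene with at least 50 counts in both lines. The 129 chosen genes lie below and left of the dashed lines at -1, most of them close to the CUTLL1 threshold and spread along the CEM axis down to -8.55.

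Most of the set had few reads. The median count was 166 in CEM shRenilla, against 2481 over all genes considered, and 235 in the larger CUTLL1 control, against 4492. With shJMJD3 the medians were 34 counts in CEM and 61 in CUTLL1. The 95% counting interval of the ratio lay wholly below 0 in both lines for all 129 genes, and wholly below -1 in CEM for 92, in CUTLL1 for 56 and in both for 45. Protein-coding genes made up 61.2% of the set (79 genes) against 75.7% of the genes considered. Antisense RNAs made up 10.1% (13 genes) against 8.22%, and long intergenic RNAs 7.75% (10 genes) against 2.4%. Scaling by TMM, a method that assumes most genes unchanged, has factors that shift log2 ratios up by 0.22 in CEM and 0.14 in CUTLL1, less for genes with few counts because of the counts added. Under it 79 of the 129 genes stayed past the threshold in both lines under it. The genes named below are described on column totals.

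The promoters of 3 genes are shown because each carries the E-box CACGTG, the sequence bound by MYC and related factors, and because 2 of them, SRM and IPO4, are among the best covered of the set. RefSeq promoter windows on build GRCh38.p14, from 250 bases before to 50 after the gene start, matched 54 of the 129 genes (41.9%). The letters CACGTG, which read the same on both strands and contain the core ACGTG of the hypoxia element, were found in 8 of these windows (14.8%), those of BEND6, DST, DNAJC12, IPO4, MAP9, NR5A1, SRM and WDR17. The share was 10.2% of the 9033 matched windows of genes considered, and 7.43% of all 27305 windows. The letters TATAAA, searched on both strands, were in 11.1% of the set's windows against 5.4% of those considered, and GGGCGG, the GC box, in 51.9% against 69.7%. The core ACGTG itself was in 20.4% against 26.7%, TGGGAA (RBPJ) in 20.4% against 21.8% and CCGGAAGT (ETS) in 5.56% against 9.25%. TGACGTCA (CRE) was in 0% against 3.25%, and TTGCATCA (ATF4 element) in 0% against 0.443%. With fewer than 80% of the genes matched these shares describe the matched genes only, and a match shows letters, not binding. Each sequence runs 5′ to 3′ on the gene's strand up to the start, with the E-box in capitals.
SRM (chr1:11060019-11060268, minus strand, E-box 199 bases before the start): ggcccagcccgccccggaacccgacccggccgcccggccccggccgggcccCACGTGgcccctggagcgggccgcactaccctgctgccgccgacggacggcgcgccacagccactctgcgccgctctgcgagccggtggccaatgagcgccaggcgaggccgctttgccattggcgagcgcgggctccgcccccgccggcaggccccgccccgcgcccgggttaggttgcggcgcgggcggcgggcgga
IPO4 (chr14:24188817-24189066, minus strand, E-box 29 bases before the start): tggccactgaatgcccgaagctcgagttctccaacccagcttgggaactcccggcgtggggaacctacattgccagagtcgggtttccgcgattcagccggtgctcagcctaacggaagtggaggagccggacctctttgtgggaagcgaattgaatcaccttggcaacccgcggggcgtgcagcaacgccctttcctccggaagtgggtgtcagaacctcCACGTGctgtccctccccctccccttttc
DNAJC12 (chr10:67838189-67838438, minus strand, E-box 45 bases before the start): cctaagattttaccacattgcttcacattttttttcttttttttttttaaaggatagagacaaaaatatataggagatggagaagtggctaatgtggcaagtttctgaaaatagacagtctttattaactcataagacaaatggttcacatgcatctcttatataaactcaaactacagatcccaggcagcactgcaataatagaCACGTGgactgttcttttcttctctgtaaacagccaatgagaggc

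Enzymes of one-carbon, sulfur, pterin and polyamine metabolism formed one group of the set. SRM, spermidine synthase, makes the polyamine spermidine from putrescine. It stood at 83.5 CPM with shRenilla, 87.7 with shUTX and 27.6 with shJMJD3 in CEM. The CUTLL1 values were 33.2 CPM in the larger control, 28.9 in the smaller, 20.02 with shUTX and 13.2 with shJMJD3. The shJMJD3 column was the lowest in both lines, with log2 ratios of -1.60 (95% interval -1.67 to -1.53) in CEM and -1.34 (-1.40 to -1.27) in CUTLL1, and in CUTLL1 the shUTX column lay between. QDPR, the reductase that regenerates tetrahydrobiopterin, was at 25.9, 25.5 and 6.43 CPM in CEM with shRenilla, shUTX and shJMJD3. In CUTLL1 it was at 1.96 CPM in the larger control, 1.93 in the smaller, 2.19 with shUTX and 0.551 with shJMJD3. For this gene both control forms and shUTX lay close together in CUTLL1, and the log2 ratios were -2.004 (-2.15 to -1.86) in CEM and -1.82 (-2.16 to -1.51) in CUTLL1.

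CBS, which joins homocysteine and serine on the way to cysteine, fell from 14.8 CPM with shRenilla and 18.8 with shUTX to 1.21 with shJMJD3 in CEM. CUTLL1 had 14.6 CPM in the larger control, 19.0 in the smaller, 22.9 with shUTX and 7.02 with shJMJD3. The shJMJD3 column was lowest in both lines, but against the remainder of the CUTLL1 control the log2 ratio was only -0.34. BHMT, which remethylates homocysteine to methionine, had 111 counts with shRenilla, 86 with shUTX and 4 with shJMJD3 in CEM. Its CUTLL1 counts were 55 in the larger control, 49 in the smaller, 30 with shUTX and 10 with shJMJD3, and the log2 ratio to the remainder was 0.09. The CUTLL1 fold of BHMT thus rests on the smaller control. GLDC, the glycine decarboxylase, was at 1.15 CPM with shRenilla, 1.13 with shUTX and 0.157 with shJMJD3 in CEM. The CUTLL1 values of GLDC were 12.5 CPM in the larger control, 6.66 in the smaller, 7.77 with shUTX and 5.11 with shJMJD3. Its CUTLL1 fold rests on the other part, with a log2 ratio of -1.95 to the remainder and -0.38 to the smaller control. OPLAH, which opens the ring of oxoproline in the glutathione cycle, had log2 ratios of -1.05 and -1.02.

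The other genes of these pathways were counted from lists. In the list of 14 polyamine genes, all with enough counts in both lines, 3 were at least 2-fold lower in CEM, where 20.6% of genes with 50 counts were, and SRM alone in CUTLL1, where 3.36% were. ODC1, the first enzyme of polyamine synthesis, had log2 ratios of -1.004 in CEM and -0.53 in CUTLL1, and SMS, spermine synthase, of 0.99 and 0.23. Among 16 tetrahydrobiopterin and folate genes 4 were lower in CEM, and QDPR alone in CUTLL1, where 1 was higher. The CEM shares lay close to the background.

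A further group builds or uses the cytoskeleton. MAP1B, a microtubule-binding protein of neurons, was at 99.1 CPM with shRenilla, 136 with shUTX and 2.77 with shJMJD3 in CEM. In CUTLL1 it was at 1.69 CPM in the larger control, 2.49 in the smaller, 2.29 with shUTX and 0.706 with shJMJD3. The CEM log2 ratio was -5.15 (-5.37 to -4.95), while the CUTLL1 ratio of -1.25 (-1.56 to -0.97) came to 0.04 against the remainder. DST, dystonin, links actin, intermediate filaments and microtubules. It had 21.99, 27.8 and 3.47 CPM in CEM with shRenilla, shUTX and shJMJD3. Its CUTLL1 values were 11.4 CPM in the larger control, 9.65 in the smaller, 7.66 with shUTX and 3.96 with shJMJD3. The shJMJD3 column was below every other one in both lines, with log2 ratios of -2.66 (-2.86 to -2.47) and -1.53 (-1.65 to -1.41). BEND6, a nuclear protein whose gene lies within 10 kb of DST on the opposite strand, had log2 ratios of -3.07 and -1.37. DYNC2H1, the heavy chain of the dynein that returns cargo along cilia, had -3.56 and -1.33, and the talin TLN2, which ties integrins to actin, -3.21 and -1.09. The spindle protein MAP9 had -1.49 and -1.33, and the minus-end kinesin KIFC3 had -1.83 and -1.31. An antisense gene, RP11-1069G10.1, overlaps TLN2 and is itself in the set, and since strand handling in the counting was not given in the sources used here, reads of both cannot be told apart.

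Exchange factors and scaffolds of small GTPase and kinase signalling came next. MCF2L, a guanine nucleotide exchange factor, was at 13.2 CPM with shRenilla, 14.02 with shUTX and 0.612 with shJMJD3 in CEM. MCF2L in CUTLL1 was at 0.814 CPM in the larger control, 0.734 in the smaller, 0.874 with shUTX and 0.218 with shJMJD3. The log2 ratios were -4.39 (-4.90 to -3.99) and -1.86 (-2.44 to -1.40). TRIO, a large exchange factor with a kinase domain, was at 3.30 CPM with shRenilla, 6.88 with shUTX and 0.569 with shJMJD3 in CEM. Its CUTLL1 values were 1.83 CPM in the larger control, 1.77 in the smaller, 2.55 with shUTX and 0.574 with shJMJD3. For TRIO the shUTX column was the highest and the shJMJD3 column the lowest in both lines. RAPGEF1, an activator of the GTPase RAP1, had the most reads of all protein-coding genes in the set, with 197, 183 and 70.5 CPM in CEM for shRenilla, shUTX and shJMJD3. In CUTLL1 it had 144 CPM in the larger control, 156 in the smaller, 140 with shUTX and 68.7 with shJMJD3, and its intervals were narrow (-1.52 to -1.44 in CEM, -1.10 to -1.04 in CUTLL1). SH3RF1, a scaffold of the JNK kinase cascade, had 493, 454 and 29 counts in CEM, and in CUTLL1 238 in the larger control, 63 in the smaller, 60 with shUTX and 42 with shJMJD3. Most of its CUTLL1 control reads were in the remainder, and the log2 ratio to the smaller control was -0.82. Of 13 JNK pathway genes in CEM 2 were lower and 0 higher, against 20.6% of genes lower and 7.57% higher. Of 15 in CUTLL1 SH3RF1 was lower and 1 was higher, against 3.36% of genes lower and 2.91% higher.

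**Figure D2:**
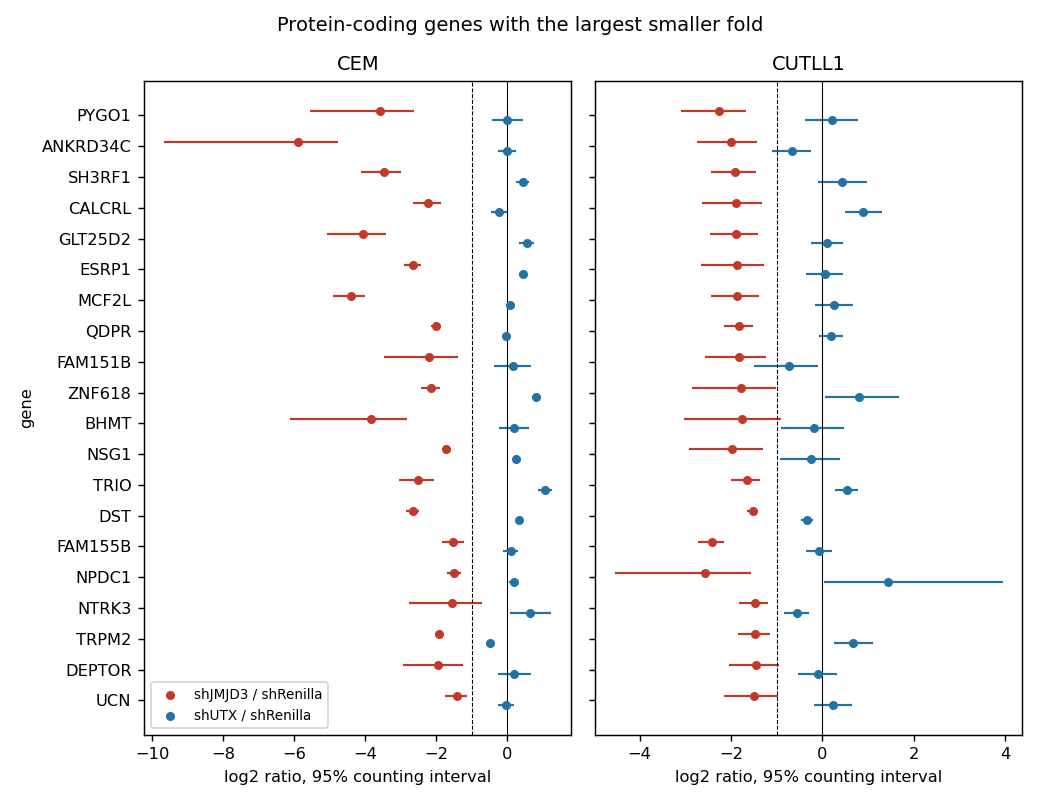
Log2 ratios to shRenilla (horizontal axes, different in range) of the 20 protein-coding genes with the largest smaller fold of both lines, shJMJD3 in red and shUTX in blue, CEM on the left and CUTLL1 on the right. Bars are 95% counting intervals. The CUTLL1 control is the column each hairpin was deposited with. The red points lie left of the dashed line at -1 by construction, and the blue points lie on either side of 0.

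Several genes of the set are known from neurons. NSG1, a vesicle protein that sorts receptors in neurons, was at 27.3 CPM with shRenilla, 32.7 with shUTX and 8.35 with shJMJD3 in CEM. In CUTLL1 it had 99 counts in the larger control, 56 in the smaller, 33 with shUTX and 16 with shJMJD3. The log2 ratios were -1.71 (-1.84 to -1.58) in CEM and -1.98 (-2.93 to -1.29) in CUTLL1. RGMB, a co-receptor for bone morphogenetic proteins, was at 32.4, 35.9 and 12.2 CPM in CEM, with log2 ratios of -1.41 and -1.55. NTRK3, the receptor for neurotrophin 3, had -1.56 and -1.49 (-0.67 against the remainder), and SYT1, the calcium sensor of synaptic vesicles, -1.10 and -1.15. FLRT1, an adhesion protein, had -2.96 and -1.24, and it overlaps the antisense gene RP11-21A7A.3, also in the set. DNAJC12, a co-chaperone of the aromatic amino acid hydroxylases that use the cofactor regenerated by QDPR, had 114 counts with shRenilla, 109 with shUTX and 0 with shJMJD3 in CEM. Against a floor of 3 counts it was at least 25.6-fold lower there. In CUTLL1 it had 938 counts in the larger control, 530 in the smaller, 363 with shUTX and 284 with shJMJD3, with log2 ratios of -1.16 to the smaller control and -1.13 to the remainder.

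Receptors and enzymes of cyclic nucleotide signalling were also present. CALCRL, the receptor for calcitonin gene-related peptide and adrenomedullin, was at 4.04 CPM with shRenilla, 3.44 with shUTX and 0.854 with shJMJD3 in CEM. Its CUTLL1 values were 0.531 CPM in the larger control, 0.658 in the smaller, 1.23 with shUTX and 0.138 with shJMJD3. The shUTX column was the highest in CUTLL1 and the shJMJD3 column the lowest in both lines. UCN, urocortin, a peptide of the corticotropin-releasing family, had log2 ratios of -1.42 and -1.51, the latter -0.33 against the remainder. ADCY6, which makes cyclic AMP, had -1.41 and -1.21, the latter -0.26 against the smaller control. The anchor of its target kinase, AKAP6, had -1.91 and -1.17, the cyclic GMP phosphodiesterase PDE9A -1.02 and -1.27, and the exporter ABCC4, which carries cyclic nucleotides, -1.37 and -1.05. Among calcitonin family genes 3 of 6 were lower and 1 higher in CEM, where 20.6% of genes were lower and 7.57% higher. CALCRL was the single one of 4 lower in CUTLL1, where 3.36% of genes were. Lists this small describe their genes only.

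Immune receptors and ligands came to 6 genes of the set. TNFRSF4, the costimulatory receptor OX40, was at 3.22 CPM with shRenilla, 1.72 with shUTX and 0.968 with shJMJD3 in CEM. OX40 in CUTLL1 was at 6.97 CPM in the larger control, 4.71 in the smaller, 4.04 with shUTX and 3.10 with shJMJD3. Its ligand TNFSF4 had 105 counts with shRenilla, 67 with shUTX and 9 with shJMJD3 in CEM. The CUTLL1 counts of TNFSF4 were 90 in the larger control, 65 in the smaller, 47 with shUTX and 29 with shJMJD3. Receptor and ligand were thus both in the set, with log2 ratios of -1.72 and -2.80 in CEM and -1.17 and -1.03 in CUTLL1. In CUTLL1 each was past 2-fold against 1 part of the control only, as TNFRSF4 had -0.60 to the smaller control and TNFSF4 -0.37 to the remainder. LTB4R, the leukotriene B4 receptor, was at 41.6, 46.7 and 19.4 CPM in CEM, and in CUTLL1 at 6.37 in the larger control, 5.73 in the smaller, 3.96 with shUTX and 2.85 with shJMJD3. CXCR3, a chemokine receptor of activated T cells, had 86, 31 and 12 counts in CEM, and in CUTLL1 187 in the larger control, 148 in the smaller, 39 with shUTX and 57 with shJMJD3. In CXCR3 both hairpins lay below the control in CEM and below the smaller control in CUTLL1. Against the remainder, which holds 39 counts (0.343 CPM), the shJMJD3 log2 ratio was -0.07, and shUTX at 0.383 CPM was not below it. TRGV3, a variable segment of the T cell receptor gamma chain, had 3007, 1206 and 328 counts in CEM, and in CUTLL1 64 in the larger control, 18 in the smaller, 11 with shUTX and 19 with shJMJD3, with a log2 ratio of -0.17 to the smaller control.

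Among nuclear proteins, PYGO1 had the largest smaller fold of all protein-coding genes. It is a cofactor of beta-catenin in Wnt signalling, and reads the tail of histone H3. In CEM it had 110 counts with shRenilla, 75 with shUTX and 5 with shJMJD3. In CUTLL1 it had 150 in the larger control, 59 in the smaller, 48 with shUTX and 20 with shJMJD3. The log2 ratios were -3.57 (-5.54 to -2.63) and -2.27 (-3.09 to -1.66). Of 29 Wnt pathway genes with enough counts in each line, 10 were lower and 4 higher in CEM, where 20.6% of genes were lower and 7.57% higher. In CUTLL1 2 of them were lower, against 3.36% of genes. AXIN2, a standard target of beta-catenin, had log2 ratios of -2.59 in CEM and 0.09 in CUTLL1. TERF2IP, the telomere protein RAP1, had 122, 113 and 53.1 CPM in CEM, and in CUTLL1 104 in the larger control, 115 in the smaller, 110 with shUTX and 48.2 with shJMJD3. IPO4, an importin that brings histones into the nucleus, had 45.5, 45.4 and 20.8 CPM in CEM, and in CUTLL1 109 in the larger control, 115 in the smaller, 70.8 with shUTX and 50.4 with shJMJD3. TERF2IP was thus well below the control with shJMJD3 and not with shUTX in both lines, and IPO4 was below it with both hairpins in CUTLL1. Under TMM both genes fell short of 2-fold in both lines. The zinc finger genes ZNF618, ZNF132 and ZBTB38 had CEM log2 ratios of -2.15, -2.68 and -1.66 and CUTLL1 ratios of -1.78, -1.21 and -1.29.

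Some leading genes had very few reads in one column or part. ANKRD34C, an ankyrin repeat protein, had 292 counts with shRenilla, 198 with shUTX and 2 with shJMJD3 in CEM, with a counting interval of -9.67 to -4.76 around a log2 ratio of -5.89. In CUTLL1 all 149 counts of the larger control were in the smaller one, and the log2 ratio to the remainder was 3.14. ESRP1, a splicing regulator of epithelial cells, had 1454, 1348 and 155 counts in CEM, and 123 of its 125 counts of the larger CUTLL1 control were in the smaller. Its log2 ratio to the remainder was 2.03. The lowest CEM value was that of CTA-384D8.31, with 746 counts with shRenilla, 579 with shUTX and 0 with shJMJD3, at least 168-fold lower. GLT25D2, a collagen galactosyltransferase, had 378, 377 and 14 counts in CEM, and in CUTLL1 208 in the larger control, 160 in the smaller, 121 with shUTX and 37 with shJMJD3. SERPINB8, a protease inhibitor, was at 18.8, 25.02 and 0.754 CPM in CEM, and in CUTLL1 at 20.6 in the larger control, 20.8 in the smaller, 15.4 with shUTX and 9.57 with shJMJD3. MEST, an imprinted gene of the hydrolase family, had the larger fold in CUTLL1, with 50, 26 and 16 counts in CEM and log2 ratios of -1.02 (-1.99 to -0.24) there and -2.15 (-2.19 to -2.10) in CUTLL1. Its CUTLL1 values were 116 CPM in the larger control, 78.6 in the smaller, 62.6 with shUTX and 26.1 with shJMJD3.

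The UTX hairpin was set against shRenilla for the same genes. These comparisons share control libraries with the ones that chose the set and are given as a description. In CEM the median log2 ratio of shUTX to shRenilla over the 129 genes was -0.0025, against -0.04 over all 16791 genes with enough counts. At least 2-fold lower were 3 genes (2.33%, against 1.38% of all), and 2 were at least 2-fold higher (1.55%, against 0.721%). In CUTLL1 101 of the genes had 50 counts in these columns, with a median of -0.10 against -0.05 over 16886 genes. There 3 were lower (2.97%, against 0.314%) and 0 were higher (0.592% of all). Set against the larger control instead, 27 of the 129 were lower with shUTX (20.9%, against 12.1%). No gene of the set was at least 2-fold lower with shUTX in both lines, and 84 of all 129 were within 1.5-fold of the control in both. These counts set no minimum of counts, and the shares over all genes were not computed for them. With 1.38% and 0.314% of all genes lower in each line, few genes of any set would be lower in both. The genes with the lowest mean shUTX ratio were RP11-216N14.7, CXCR3, DIO2 (a deiodinase that activates thyroid hormone), RP11-417L19.4 and RP11-443D10.2. CXCR3 had log2 ratios of -0.89 in CEM and -1.39 in CUTLL1, and DIO2 -0.59 and -1.37. The highest were TRIO (1.05 and 0.53), ZNF618 (0.81 and 0.81), NPDC1 (0.18 and 1.43, the latter on 10 against 4 counts), ZBTB38 (1.09 and 0.10) and ADCY6 (0.70 and 0.48).

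Across lines, edgeR's quasi-likelihood F test of shUTX against shRenilla, with the line as a block, called 0 of 23112 genes (0.0%) at an adjusted p under 0.05. None of the 129 genes was called and 0 had an unadjusted p under 0.05, where 39 of all genes had (0.169%). By that share alone a set of this size can hold none. The fit also used columns that chose the set, those of shJMJD3 in both lines and shRenilla in CEM. Its results for the set are thus not independent of the choice. DESeq2 called 1 gene, not of the set, and 1 gene of the set had an unadjusted p under 0.05 by it. This test has 2 lines as replicates and 2 residual degrees of freedom, and a p that misses the threshold does not show that values did not differ.

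**Figure D3:**
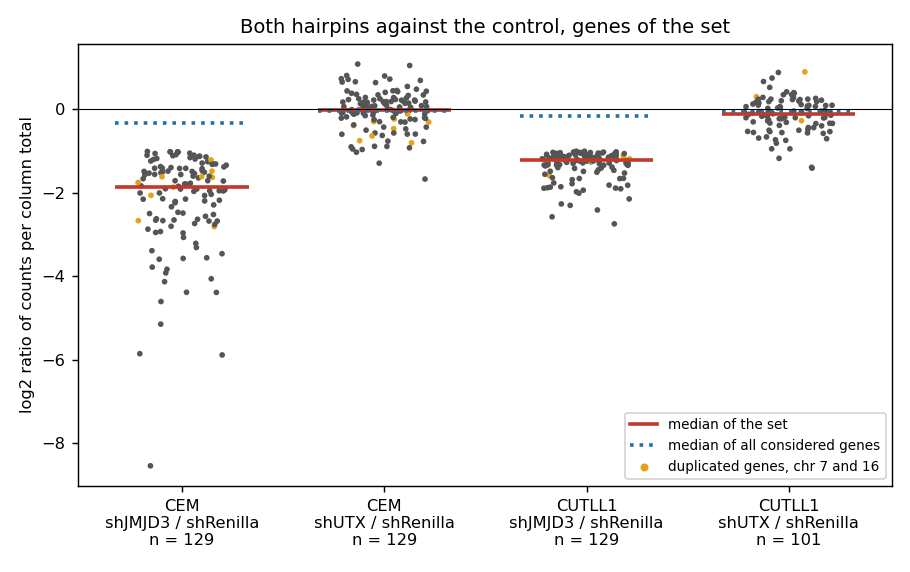
Log2 ratio to shRenilla (vertical axis) of each gene of the set, 1 point per gene, for both hairpins and lines. Red lines mark the medians of the set and blue dotted lines those of all genes considered. The shJMJD3 points lie at or below -1 because they were chosen so, and the shUTX points are centred at -0.0025 in CEM and -0.10 in CUTLL1.

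Set directly against shUTX, in comparisons that share the shJMJD3 columns with the choice of genes, 92 of 102 genes with 50 counts were at least 2-fold lower with shJMJD3 in CEM (90.2%, against 18.3% of all genes). The median log2 ratio was -1.98. In CUTLL1 51 of 87 were lower (58.6%, against 4.62%) and 10 were higher (11.5%, against 12.7%), with a median of -1.13 and a mean of -0.56. Without a minimum of counts in these columns, 63 of the 129 genes were at least 2-fold below shUTX in both lines, 48 of them protein-coding. The share over all genes was not computed for this count, and the choice of genes by low shJMJD3 values raises it. Of the 10 genes higher than shUTX in CUTLL1, 9 belong to the duplicated genes described next.

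The parts of the CUTLL1 control did not carry the set evenly. Together they make up the control column that chose the set, and the shJMJD3 column is the same. Ratios to them are given as a description, and lower ratios than over all genes follow in part from the choice. Over all genes the remainder holds 44.0% of the counts of the larger control. For 13 genes of the set it holds over 90% (10.1%, against 2.49% of the genes considered), and for 4, ANKRD34C, CTA-384D8.31, ESRP1 and POLRMTP1, under 10%. Against the smaller control 82 of 109 genes with enough counts were at least 2-fold lower with shJMJD3 (75.2%, against 3.99% of all genes) and 11 were at least 2-fold higher (10.1%, against 12.4%). Against the remainder 67 of 90 were lower (74.4%, against 8.54%) and 0 higher. Between the parts, 27 of 114 genes were at least 2-fold higher in the remainder (23.7%, against 13.9%) and 16 were lower (against 23.8% of all). Of the 129 genes 107 were below both parts, and 48 were at least 2-fold below both, 30 of them protein-coding. These counts set no minimum of counts in each part, and the shares over all genes were not computed for them. These 48 included PYGO1, CALCRL, MCF2L, QDPR, NSG1, TRIO, DST, RGMB, BEND6, SRM, DYNC2H1, KIFC3, AKAP6, DNAJC12, IPO4, SERPINB8, LTB4R, PDE9A and MEST. So the description halved in both lines holds against the pooled control of CUTLL1 for all 129 genes by the rule itself, and against each part of it for 48.

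A block of 10 genes and pseudogenes of duplicated segments on chromosomes 7 and 16, grouped by hand, took most of its CUTLL1 control reads from the remainder. They are GTF2IRD2, GTF2IRD2B and GTF2IRD2P1 on chromosome 7, copies of one transcription factor gene, and NPIPL3, SNX29P2, RP11-231C14.2, RP11-231C14.4, RP11-347C12.1, RP11-368J21.2 and RP11-645C24.1. Between 78.5% and 99.6% of their control counts were in the remainder. NPIPL3 had 5437 counts in the larger control, 20 in the smaller, 14 with shUTX and 1702 with shJMJD3, and RP11-368J21.2 had 14637, 74, 43 and 4347 in the same order. For both the shJMJD3 column held many reads where the smaller control and shUTX held few. GTF2IRD2P1 did not share this, with 87 counts in the smaller control, 57 with shUTX and 90 with shJMJD3. Over the 10 genes log2 ratios of shJMJD3 ran from -2.40 to -2.26 against the remainder and from -0.22 to 6.004 against the smaller control. The pattern was not limited to the block. AC159540.2 had 182 counts in the larger control, 6 in the smaller, 6 with shUTX and 38 with shJMJD3. RP11-262H14.1 had 235, 27, 17 and 60 in the same order. In CEM NPIPL3 had 439 counts with shRenilla, 228 with shUTX and 87 with shJMJD3. Reads of near-identical copies can be assigned to several places, and the authors' rule for them was not given in the sources used here. Whether this bears on the pattern was not tested, and these 10 genes are treated as uncertain. Without them the set has 119 genes. In CUTLL1 51 of 77 were then at least 2-fold below shUTX (against 4.62% of all genes) and 1 above (against 12.7%), with a median of -1.19. Against the smaller control 82 of 99 were at least 2-fold below (3.99% of all genes) and 2 above (12.4%). The 10 genes left out hold most of those above these columns, so the fewer genes above follow from leaving them out.

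**Figure D4:**
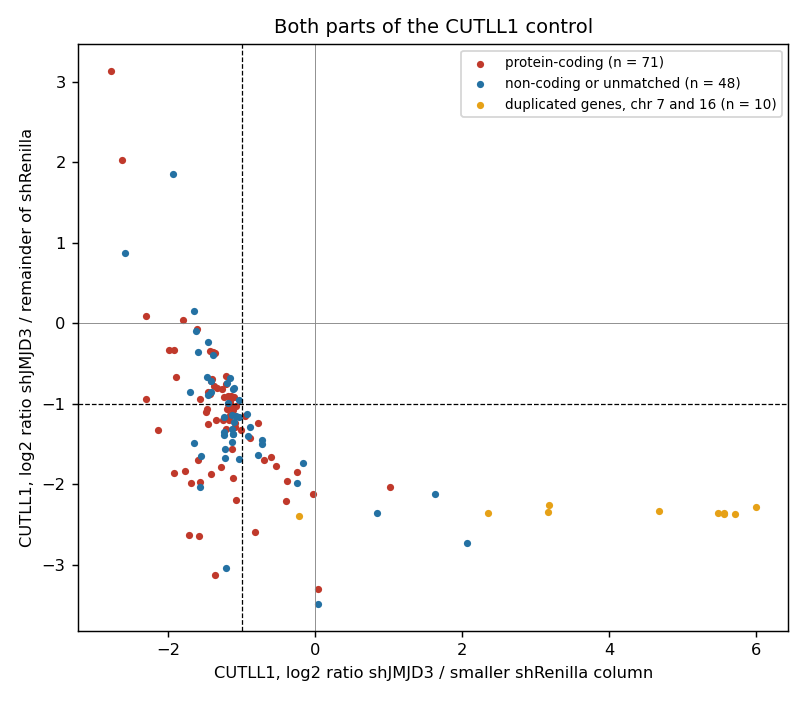
Log2 ratio of shJMJD3 to the smaller shRenilla column (horizontal axis) and to the remainder (vertical axis) in CUTLL1, 1 point per gene of the set, with dashed lines at -1. The 48 genes in the lower left corner are at least 2-fold below both parts. The duplicated genes in orange run along the lower edge out to 6.004.

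The genes without a protein-coding label that had the most reads were SNX29P2, 1 of the uncertain duplicated genes, TRGV3 and RP11-453F18__B.1. The counts of RP11-453F18__B.1 in CEM were 83 with shRenilla, 55 with shUTX and 14 with shJMJD3. In CUTLL1 RP11-453F18__B.1 had 2553 in the larger control, 671 in the smaller, 513 with shUTX and 349 with shJMJD3. LINC00473, a long intergenic RNA, had log2 ratios of -3.92 and -1.11, and of 0.16 to the remainder. The small nucleolar RNAs SNORD48 and SNORD56, which guide methylation of ribosomal RNA, had log2 ratios of -1.41 and -1.24 in CEM and -1.46 and -1.28 in CUTLL1. Their reads depend on the RNA selection, which was for polyadenylated RNA or against ribosomal RNA and is not given per sample.

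The lines were also compared with each other. This contrast is another than the one that chose the set, but it uses the same columns and the chosen genes had to have 50 counts in both lines, so its calls are not independent of the choice. The edgeR quasi-likelihood F test of CUTLL1 against CEM, with hairpin as a block, called 46 of the 129 genes (35.7%, against 36.8% of 24003 genes tested). Higher in CUTLL1 were 12 (9.30%, against 19.0%) and lower were 34 (26.4%, against 17.8%). The median log2 difference, CUTLL1 minus CEM, was -0.54 over the set and 0.11 over all. MEST had the largest value, 7.74 (SE 0.344, edgeR adjusted p = 0.000877), at 116 CPM in the CUTLL1 control against 0.480 in CEM. GLDC followed with 3.99 (SE 0.536, edgeR adjusted p = 0.00826). TRGV3 had the lowest value, -6.21 (SE 0.511, edgeR adjusted p = 0.00268), followed by NPDC1 with -6.16. Among other genes lower in CUTLL1, NSG1 had -6.11 (SE 0.310, edgeR adjusted p = 0.00115), RGMB -5.09 (SE 0.278, edgeR adjusted p = 0.00130) and QDPR -3.29 (SE 0.245, edgeR adjusted p = 0.00218). The set thus holds genes read mostly in CUTLL1, such as MEST, and genes read mostly in CEM, such as NSG1. SRM was lower in CUTLL1 (log2 difference -1.199, SE 0.255, edgeR adjusted p = 0.0242), and IPO4 was higher by 1.37 (SE 0.202, edgeR adjusted p = 0.0103). The hairpins serve as replicates in this test, 3 columns a line.

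**Figure D5:**
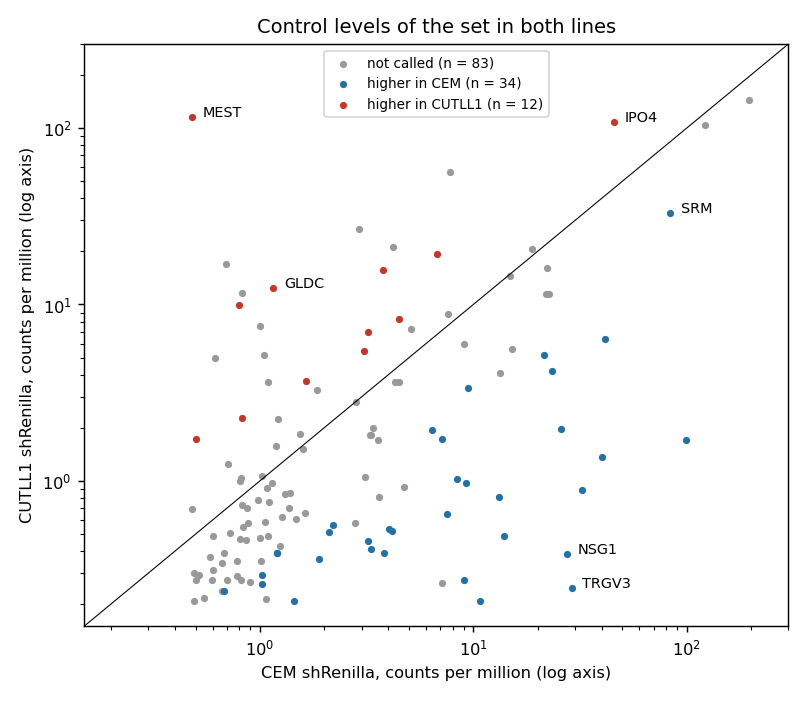
CPM in the shRenilla columns of CEM (horizontal log axis) and CUTLL1 (larger control, vertical log axis), 1 point per gene of the set, coloured by the edgeR call between lines. More genes lie below the diagonal, with 34 called lower and 12 called higher in CUTLL1.

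Lists of NOTCH targets, MYC-driven ribosome biogenesis and the ATF4 amino acid and stress response held no gene of the set, which is 0.812% of the genes considered, so lists of this size can hold none by that share alone. Among genes with 50 counts in a line, 20.6% were at least 2-fold lower and 7.57% higher in CEM, and 3.36% lower and 2.91% higher in CUTLL1. Beside that, 3 of 23 NOTCH targets were lower and 4 higher in CEM, and 4 of 27 were lower and 0 higher in CUTLL1. Of 30 ribosome biogenesis genes 8 were lower in CEM and 0 in CUTLL1. Of 24 ATF4 response genes 18 were lower in CEM and 0 in CUTLL1. These lists were assembled with earlier results of these data known.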

How the data were processed

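RNA was selected as poly-A+ or by Ribominus, made into strand-marking dUTP libraries and read as 50-nt single reads, per the labels. CASAVA, TopHat and hg19 are named in the submitters' processing notes, without versions. Counting program, annotation and strand handling were not given in the sources used here. Deposited by the authors were 6 DEGseq tables, with raw counts per gene in 1 pooled column per hairpin and line. Per the file headers they also hold a normalized log2 fold change, which gave none of the values here.

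Ratios were computed from the counts as described in the report, with exact binomial 95% intervals (scipy 1.17.1). Where 0 counts were found, a floor of 3 counts gave the bound. For shUTX the CUTLL1 control was the smaller column. The edgeR 4.0.16 quasi-likelihood tests (TMM, filterByExpr, adjusted p under 0.05) used all 6 columns and were tested on simulated data. SE values are the log2 difference divided by the square root of F. Alternatives were DESeq2 1.42.0, other scaling, added counts, minimum counts, fold and control column. Biotypes and overlaps came from GENCODE 29, which matched 15046 of the 15882 genes considered. Its coordinates belong to another build than the counts and are not given.

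Members and lists were chosen with earlier results of these data known, and roles were grouped by hand. Named genes were the 20 protein-coding ones with the largest smaller fold, the 10 with the highest control level, those on a list, the 5 lowest and 5 highest with shUTX, those at the threshold and the 3 non-coding ones with most reads. Further ones were chosen for their role after their values were seen. 1 gene list is not reported here.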

Additional observations from a re-analysis of the deposited data

How the results depend on the processing

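The number of genes in the set moved with the choice of scaling, depth, fold and control. TMM scaling gave 79, a minimum of 10 counts 408, one of 200 counts 45, a 1.5-fold threshold 854, the smaller CUTLL1 control 247 (82 shared with the 129) and the remainder 198 (67 shared). Adding 0.5 or 10 counts gave 132 and 107. Against the larger CUTLL1 control 27 genes were at least 2-fold lower with shUTX and the median was -0.24. For shJMJD3 to shUTX, the CEM median was -1.79 with TMM, -1.76 with 10 counts added and -2.30 as a mean. In CUTLL1 TMM gave 30 lower genes and a median of -0.82, and the mean was -0.56. DESeq2 called 1 gene for shUTX. Between lines, edgeR with RLE size factors, with no filter and with the smaller control, and DESeq2, called 41 to 58 genes of the set. Of the CUTLL1 ratios of named genes, those of ANKRD34C (3.14), ESRP1 (2.03), BHMT (0.0906) and MAP1B (0.0388) reversed against the remainder, and those of NPDC1 (0.0338), SNX29P2 (5.48) and RP11-368J21.2 (5.57) against the smaller control. A further 9 CUTLL1 ratios fell short of 2-fold against the remainder, among them CXCR3 (-0.07), DEPTOR (-0.33), UCN (-0.33) and NTRK3 (-0.67), and 5 against the smaller control, TRGV3 (-0.17), ADCY6 (-0.26), TRPM2 (-0.39), RP11-443D10.2 (-0.72) and SH3RF1 (-0.82). The cause was not tested. Of 78 ratios of named genes in both lines 12 fell short of 2-fold under TMM, among them those of TERF2IP and IPO4 in both lines, RAPGEF1 and SERPINB8 in CUTLL1 and LTB4R and MEST in CEM, and 4 with 10 counts added. No paired analysis was possible because the columns pool the replicates and carry no numbers, and for the same reason no replicate could be left out. Depth limits the ratios of genes with few reads, of which 2 had 0 and 4 had 1 to 3 counts in CEM with shJMJD3.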
